A study of Mus musculus with 4 samples.

Results

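Long cassette exons are the internal exons of more than 300 nt that a spliced mRNA can either carry or skip. They were taken from the deposited table of cassette exons as the rows that are not microexons and whose length is over 300 nt, which gave 2007 of 53843 rows (3.73%). Inclusion was measured as percent spliced in (PSI), the share of a gene's spliced reads at the exon that include it. Of the 2007 rows, 1049 had a PSI in all 4 libraries and a coverage score of LOW, OK or SOK in 3 or more of them. These 1049 exons, from 946 genes, are described here beside the 32675 non-microexon cassette exons of all lengths that met the same rule. The choice used length and coverage and no PSI value.

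The cells were Neuro-2a (N2a), a mouse neuroblastoma line. They received a control siRNA (siControl) or an siRNA against Arglu1 (siArglu1) for 48 h and then, for 4 h, ethanol (vehicle, Veh) or 100 nM of the synthetic glucocorticoid dexamethasone (Dex). The groups were siControl with Veh or Dex and siArglu1 with Veh or Dex, and all 4 were transfected. The mRNA of 3 cultures was pooled into 1 poly(A) library per group, so no group has a replicate and a difference within 1 pair has no replicate check. A difference of at least 15 points of PSI, the study's own size of change, is therefore used as a rule of size, and a fit of siRNA and treatment over the 4 libraries, with 1 residual degree of freedom, is given beside it. The knockdown was read in 2 pairs (siArglu1 minus siControl, in vehicle and in Dex) and the hormone in 2 pairs (Dex minus vehicle, in siControl and in siArglu1). The 2 knockdown pairs share no library with each other, nor do the 2 Dex pairs, whereas a knockdown pair and a Dex pair do.

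Most internal exons of vertebrates are short and are recognised as units, with splicing factors at the 3′ splice site upstream of the exon and the 5′ splice site downstream of it contacting each other across the exon. A long exon stretches that contact and is thought to depend more on enhancer sequences within the exon and on the SR proteins, which carry arginine and serine rich domains, that bind there. ARGLU1 is an arginine and glutamate rich nuclear protein with an RS-like domain and is a coactivator of the glucocorticoid receptor. In the study it is examined for a role in alternative splicing.

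Reads on genes came to between 66074574 and 86541444 per library. Arglu1 had 10165 (Veh) and 11825 (Dex) reads in siControl, against 2637 (Veh) and 3254 (Dex) in siArglu1. Its normalised level in the siArglu1 libraries was 26.7% of siControl in vehicle and 22.8% in Dex. All 16 listed markers of neurons and neuroblastoma were at 1 cRPKM (reads scaled by mappable length and library size) or more in every library, and none of 18 listed markers of other cell types was, with 13 of them under 0.5 in every library and a summed level of 3.93 to 5.19. The siArglu1 Veh library was the thinnest at exon junctions: 493 of the 1049 long exons (47.0%) had the top score SOK there, against 664 to 711 in the other libraries. How far this difference in coverage moves the changes in vehicle was not tested.

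Of the other long rows, 259 lacked a PSI in at least 1 library and 699 had too little coverage. The rule kept 52.3% of long rows and 61.0% of the rows of 300 nt or less. The kept exons ran up to 8104 nt, with a median of 482 nt. The flanking exons of 86 of them were also those of another kept row, so that their PSI shares reads. Just inside the length limit, 1 nt above it, were exons of Pkn2 (98.2 to 100 over the libraries), Birc6 (99.5 to 100) and Tra2a (5.72 to 6.69). Just outside, at 300 nt, were exons of Elf1, Dok1, Upf2 and Clpx, of which Upf2 lay between 0 and 0.91 and the other three at 97.7 or above. The cassette table gives scores and no reads. In the deposited tables of alternative splice sites, which print both, LOW stood for 20 to 39 reads, OK for 40 to 99, SOK for 100 or more, VLOW for 10 to 19 and N for fewer than 10. No source used here gives the ranges for cassette exons, so no interval is given for a PSI. The score OK or SOK was reached in all 4 libraries by 819 long exons and SOK in all 4 by 464.

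The ends of 5 long exons are shown because these exons passed the size rule in the same direction in both knockdown pairs, are fully coding, and match an exon of the same gene, length and flanking introns in GENCODE M21. The sequences are those of the M21 transcripts on GRCm38, 5′ to 3′ on the strand of the gene. The 3 bases next to each splice site are in capitals.
Ptprf, first 60 bases, chr4:118226318-118226377, minus strand: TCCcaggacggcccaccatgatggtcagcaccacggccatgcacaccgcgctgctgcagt
Ptprf, last 60 bases, chr4:118225799-118225858, minus strand: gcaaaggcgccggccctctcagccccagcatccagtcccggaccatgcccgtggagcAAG
Ncor1, first 60 bases, chr11:62334097-62334156, minus strand: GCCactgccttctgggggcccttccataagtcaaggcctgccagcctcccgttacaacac
Ncor1, last 60 bases, chr11:62333663-62333722, minus strand: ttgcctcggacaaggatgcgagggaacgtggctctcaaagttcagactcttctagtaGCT
1200016B10Rik (Swt1), first 60 bases, chr1:151411399-151411458, minus strand: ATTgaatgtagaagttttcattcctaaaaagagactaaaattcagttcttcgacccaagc
1200016B10Rik (Swt1), last 60 bases, chr1:151410771-151410830, minus strand: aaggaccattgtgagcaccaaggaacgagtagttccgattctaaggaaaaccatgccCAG
Slc35a2, first 60 bases, chrX:7892140-7892199, plus strand: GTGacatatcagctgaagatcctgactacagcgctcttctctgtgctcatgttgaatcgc
Slc35a2, last 60 bases, chrX:7892808-7892867, plus strand: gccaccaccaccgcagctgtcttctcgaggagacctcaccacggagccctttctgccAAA
Rpl24 (Zbtb11), first 60 bases, chr16:55990259-55990318, plus strand: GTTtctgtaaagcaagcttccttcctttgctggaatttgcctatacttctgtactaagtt
Rpl24 (Zbtb11), last 60 bases, chr16:55991035-55991094, plus strand: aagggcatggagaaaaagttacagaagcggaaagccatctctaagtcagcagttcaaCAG
An exon most often ends in G before the 5′ splice site: 81.4% of the 854 long exons matched to M21 did so, and 79.4% of 24712 matched exons of 51 to 300 nt. Of the 5 shown, those of Ptprf, Swt1 and Zbtb11 end in G, and those of Ncor1 and Slc35a2 do not.

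Most long exons were included almost completely, and few sat between the extremes. In siControl Veh, 663 of 1049 (63.2%) had a PSI over 95, 251 (23.9%) lay between 5 and 95, and 135 (12.9%) were under 5. Exons of 51 to 300 nt were alike, with 63.6%, 20.8% and 15.7%. The median was 98.2 (Veh) and 98.1 (Dex) in siControl and 98.0 (Veh) and 98.1 (Dex) in siArglu1, against 98.0 to 98.2 for the 29338 exons of 51 to 300 nt. Over all 4 libraries, 558 long exons (53.2%) stayed above 95 and 118 (11.2%) stayed below 5, against 54.5% and 13.75% of exons of 51 to 300 nt. The PSI of a long exon spanned a median of 2.36 points from its lowest to its highest library, and 61 exons spanned 15 or more. A span under 5 points was found for 71.8% of long exons, against 76.6% of those of 51 to 300 nt.

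Inclusion did not move evenly with length. Among the 347 exons of at most 400 nt, 20.7% were under 5 in siControl Veh, and the lower quartile was 29.2. Exons over 400 and up to 500 nt (n = 215) had 13.95% under 5, and those over 500 and up to 750 nt (n = 250) had 4.4%, with a lower quartile of 93.0. The share under 5 was then 6.35% up to 1000 nt (n = 126), 10.5% up to 2000 nt (n = 76) and 17.1% over 2000 nt (n = 35). Over 2000 nt, 40% of exons lay between 5 and 95, the highest share of any bin in that library, and 42.9% were above 95. The median PSI of that bin was 85.6 (Veh) and 88.1 (Dex) in siControl and 82.8 (Veh) and 84.0 (Dex) in siArglu1, and it was 60.3 in siControl Veh over the 24 of its exons with OK or SOK in every library. The other 5 long bins had medians of 95.8 to 99.4 in every library. The dip in the share of skipped exons between 500 and 750 nt was present in each of the 4 libraries, where it ran from 4% to 4.4%. The libraries measure the same exons, most of which vary little between them, so this is no independent repeat.

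**Figure D1:**
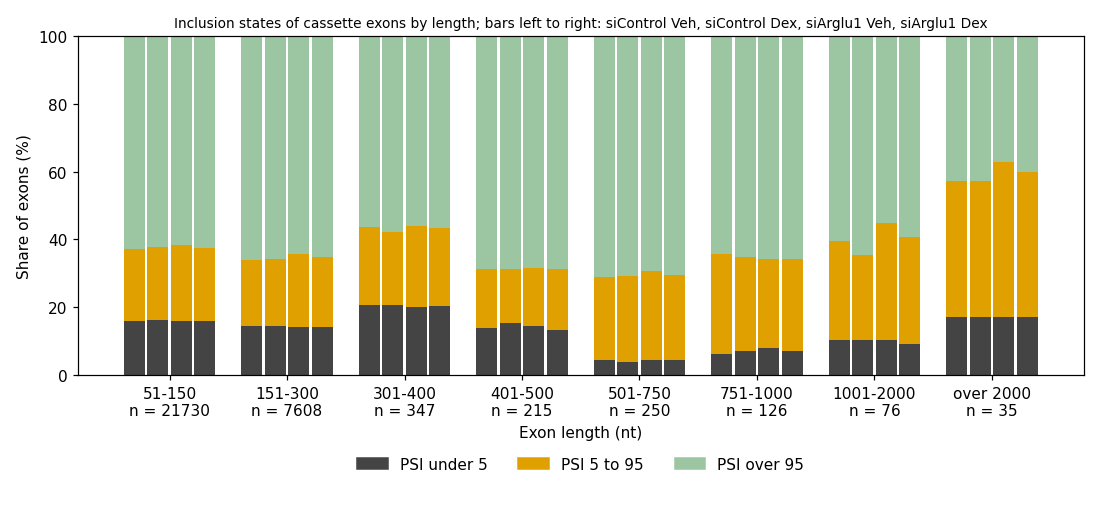
Share of cassette exons (%) with a PSI under 5, of 5 to 95 and over 95, by exon length in nt, with 1 stacked bar for each of the 4 libraries (from left to right siControl with Veh and Dex, then siArglu1 with Veh and Dex) and the number of exons under each bin. The share under 5 is lowest between 500 and 750 nt (4% to 4.4%) and the share between 5 and 95 is highest over 2000 nt (40% to 45.7%).

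After knockdown, between 20 and 30 long exons moved by 15 points or more. In vehicle, 30 of 1049 did so (2.86%), 17 higher and 13 lower, where 2.31% of all 32675 exons did (1.02% higher and 1.29% lower). In Dex, 22 did so (2.10%), 11 in each direction, where 1.79% of all exons did (0.851% higher and 0.943% lower). Both shares are near their background. Exons of 51 to 300 nt gave 2.01% and 1.59%. Since most exons are near 0 or 100, the 144 long exons with a mean PSI of 10 to 90 were also counted: 25 (17.4%) moved in vehicle and 19 (13.2%) in Dex, against 14.96% and 12.7% of 3375 exons of 51 to 300 nt in that range. The bin of 500 to 750 nt (n = 250), named after its values were seen, held 9 of the 17 exons that were higher in vehicle, and 2 of the 13 that were lower. These were 3.6% and 0.8% of the bin, against 1.62% and 1.24% of all long exons.

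Coverage marked a large part of these exons. Among the 230 long exons with a score below OK in at least 1 library, 14 moved in vehicle (6.09%, against 5.97% of all such exons), and 10 moved in Dex (4.35%, against 4.30%). Among the 819 with OK or SOK in all 4, 16 moved in vehicle (1.95%, against 1.6%) and 12 in Dex (1.47%, against 1.31%). Among the 464 with SOK in all 4 libraries, 10 moved in vehicle (2.16%, against 1.24%) and 6 in Dex (1.29%, against 1.04%). Across the 1049 exons the 2 knockdown pairs correlated with a Pearson's r of 0.45 and a Spearman's rho of 0.25, and across the 464 SOK exons with 0.72 and 0.38. These are correlations across exons, which share libraries, and in part genes and junctions, so they are a description of these libraries. Of the 30 exons that moved in vehicle, 25 had the same sign in Dex and 8 also reached 15 points there in that direction. Over all lengths 754 exons moved in vehicle, and 100 were higher and 141 lower in both pairs. In the limma fit of siRNA and treatment over all 32675 exons, no exon of any length passed an adjusted p under 0.05 for knockdown (0.0% of exons), with 103 long exons at an unadjusted p under 0.05 where 11% of all exons were. The smallest adjusted p was 0.32 for knockdown and 0.64 for Dex. The fit had 1 residual degree of freedom and gained 0.43 from the spread of all exons. With so few, an adjusted p under 0.05 was hard to reach, so its absence does not show that no exon changed.

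**Figure D2:**
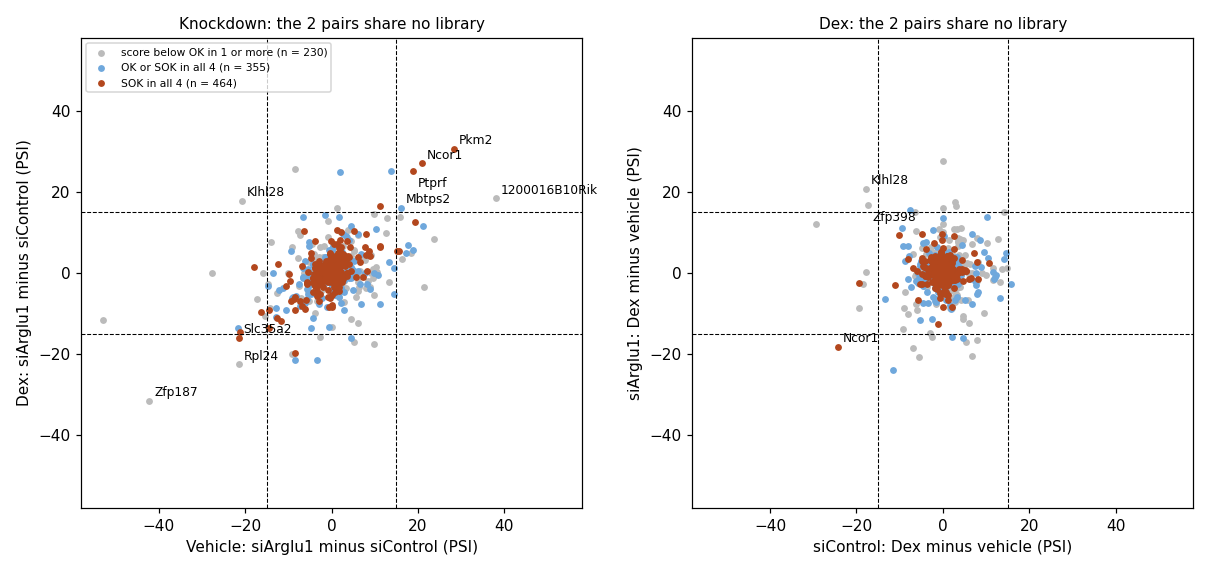
Change in PSI of each of the 1049 long exons, with the 2 knockdown pairs on the left (x, vehicle; y, Dex) and the 2 Dex pairs on the right (x, siControl; y, siArglu1), coloured by coverage score, with dashed lines at 15 points. On the left 8 exons pass both lines in the same direction, from Pkm2 at the upper right to Zfp187 at the lower left, and on the right Ncor1 alone does.

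The exons that were higher by at least 15 points in both knockdown pairs numbered 5 (100 exons, or 0.306%, over all lengths), and those lower in both numbered 3 (141 exons, or 0.432%). The higher ones were in Pkm2, Ncor1, Ptprf, 1200016B10Rik and Mbtps2. The lower ones were in Zfp187, Slc35a2 and Rpl24. In each of the 8, both siArglu1 libraries lay on the same side of both siControl libraries. The exons were chosen by these same PSI values, which leaves little room for overlap, so this is no separate support. The exon of Ncor1 came closest to overlapping, at 81.8 in siArglu1 Dex and 79.1 in siControl Veh.

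Ptprf encodes LAR, a receptor-type tyrosine phosphatase with immunoglobulin-like and fibronectin repeats outside the cell. Its 579 nt exon (mm9 chr4:117898404-117898982) stood at 76.7 (Veh) and 72.1 (Dex) in siControl and 95.6 (Veh) and 97.2 (Dex) in siArglu1, with SOK in all 4 libraries. Both siArglu1 libraries were thus close to full inclusion, 18.9 points above siControl in vehicle and 25.02 above it in Dex. The exon is exon 15 of 33 in M21, is wholly coding, has a length that is a multiple of 3, and has an annotated skipping transcript. The gene's level did not move with it in vehicle, with a log2 ratio of 0.04 (95% interval −0.01 to 0.08, counting error only), and was higher by 0.33 in Dex (0.30 to 0.37). A second long exon of Ptprf, of 306 nt, was at 100 in all 4 libraries.

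Ncor1 encodes a corepressor that joins nuclear receptors to a histone deacetylase complex. Its 494 nt exon (mm9 chr11:62147165-62147658) stood at 79.1 (Veh) and 54.8 (Dex) in siControl and 100 (Veh) and 81.8 (Dex) in siArglu1, each with SOK. After knockdown it was 20.9 points higher in vehicle and 27.0 points higher in Dex, and with Dex the differences were −24.3 in siControl and −18.2 in siArglu1. It was the single long exon that passed the size rule in the same direction in both pairs of both kinds. M21 places it as exon 37 of 46, wholly coding, with no skipping transcript, and its length is not a multiple of 3. The level of the gene itself was lower after knockdown, at 5855 reads against 14683 in vehicle and at 9511 against 15414 in Dex. The log2 ratios were −1.29 (−1.33 to −1.24) and −0.97 (−1.003 to −0.93).

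Pkm2, named Pkm in M21, encodes the pyruvate kinase of muscle and of proliferating cells, and its primary transcript carries a pair of mutually exclusive exons. The long row of this gene, of 475 nt (mm9 chr9:59523375-59523849), stood at 33.3 (Veh) and 33.1 (Dex) in siControl and 61.7 (Veh) and 63.6 (Dex) in siArglu1, all SOK. The knockdown differences were 28.4 and 30.5 points, and the Dex differences were −0.26 and 1.91. No M21 exon of this gene matched the row, its complexity class was C3, and its balance score was B2, which marks unequal reads at the 2 inclusion junctions. The upstream neighbour, a mutually exclusive exon of 167 nt that ends at position 59523002, moved the other way, from 86.0 and 85.6 in siControl Veh and Dex to 65.4 and 62.7 in siArglu1 Veh and Dex. The gene had 182972 to 241536 reads per library and log2 ratios of 0.03 and 0.00 after knockdown.

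Mbtps2 encodes the site-2 protease, which releases membrane-bound transcription factors such as the SREBPs in the Golgi. Its 676 nt exon (mm9 chrX:154006073-154006748) stood at 15.9 (Veh) and 14.7 (Dex) in siControl and 31.9 (Veh) and 30.7 (Dex) in siArglu1. The knockdown pairs differed by 15.98 and 16.03 points, just past the size rule. M21 holds it in a transcript with no coding sequence. The neighbouring 165 nt exon of the gene was at 21.5, 27.2, 45.3 and 40.3 in the same order of libraries, so it was also higher in both siArglu1 libraries.

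The exon of 1200016B10Rik, named Swt1 in M21 after a yeast RNA endonuclease, is 688 nt long (mm9 chr1:153257901-153258588). It was at 53.3 (Veh, LOW) and 63.0 (Dex, OK) in siControl and 91.3 (Veh, VLOW) and 81.4 (Dex, OK) in siArglu1. Its difference in vehicle, 38.0 points, rests on the thinnest library, and the Dex pair gave 18.4.

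Slc35a2 encodes the carrier that brings UDP-galactose into the Golgi. Its 728 nt exon (mm9 chrX:7469266-7469993) stood at 67.2 (Veh) and 65.5 (Dex) in siControl and 45.7 (Veh) and 49.4 (Dex) in siArglu1, with SOK throughout. It was lower after knockdown by 21.5 points in vehicle and 16.03 in Dex. It is exon 4 of 5 in M21 and coding, with a length that is not a multiple of 3, and skipping is annotated. The gene level differed by −0.05 on the log2 scale in vehicle (−0.20 to 0.09).

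Zfp187, named Zscan26 in M21, encodes a zinc finger protein with a SCAN domain. Its 318 nt exon (mm9 chr13:21540036-21540353) had the second largest change after knockdown in vehicle, at 84.3 (Veh) and 64.9 (Dex) in siControl and 42.1 (Veh) and 33.3 (Dex) in siArglu1. The siArglu1 Veh value carries the score VLOW and the others OK. The knockdown differences were −42.2 and −31.6, and those of Dex were −19.4 and −8.78. An exon of 60 nt between the same flanking exons, whose PSI therefore shares reads with this one, followed the same order, at 78.1, 61.2, 45.5 and 36.3.

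The third lower exon, of 836 nt (mm9 chr16:55990372-55991207), carries the symbol Rpl24 in the file, but its gene identifier is that of Zbtb11, a BTB-domain zinc finger protein, in M21. It stood at 97.0 in siControl Veh and 95.5 in siControl Dex (both OK), 75.6 in siArglu1 Veh (VLOW) and 73.0 in siArglu1 Dex (LOW). The exon is coding, exon 4 of 11, and M21 has no transcript that skips it.

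**Figure D3:**
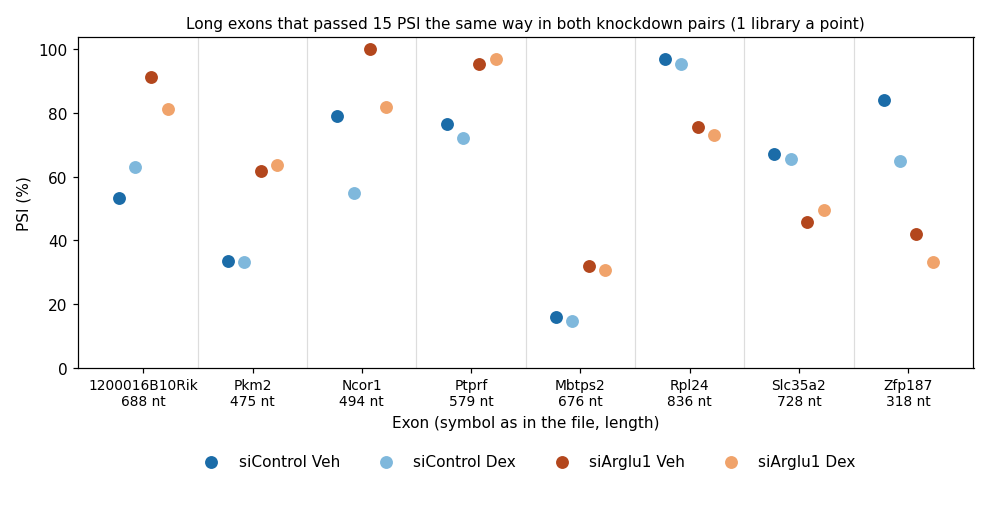
PSI (%) of the 8 long exons that passed 15 points in the same direction in both knockdown pairs, 1 point per library, by exon and library. In the 5 on the left both siArglu1 points lie above both siControl points, and in the 3 on the right below them.

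Other exons passed the size rule in 1 knockdown pair alone, and those with SOK in all 4 libraries, named here after their values were seen, had the deepest coverage. In vehicle these were Fars2, a mitochondrial tRNA synthetase, whose 633 nt exon stood at 77.1, 78.1, 96.3 and 90.7 in siControl with Veh and Dex and then in siArglu1 with Veh and Dex. The 1717 nt exon of Phf3 had 60.8, 62.9, 76.5 and 68.2, and the 606 nt exon of Zfp644 had 54.3, 62.5, 69.3 and 67.7. Lower in vehicle were Mtap1a (named Map1a in M21), Pam and Rbm14. The 8104 nt exon of Mtap1a, a microtubule-associated protein of neurons, was the longest of all 1049 exons and stood at 85.6, 88.1, 64.4 and 73.5. The 318 nt exon of Pam, an enzyme that amidates neuropeptides and whose alternative exon separates its catalytic domains, had 68.0, 57.9, 50 and 59.3. The 682 nt exon of Rbm14 had 80.6, 77.9, 64.3 and 68.2. In 5 of these 6 exons the sign was the same in Dex. Pam differed by 1.39 points in Dex, with the opposite sign. That the differences were smaller in Dex follows from choosing exons that passed in vehicle alone.

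In Dex alone, with SOK throughout, the 786 nt exon of Pi16 was higher after knockdown (27.7, 27.2, 38.8 and 43.8 in the same order) and the 1253 nt row of Rbmx, an RNA-binding protein, was lower (44.0, 42.9, 35.5 and 23.0). The widest knockdown difference of any long exon, 53.0 points lower in vehicle, belonged to a 1199 nt row of Raph1 and depended on 1 value scored N: 67.3 in the siControl library with vehicle, against 37.8 with Dex, and 14.3 and 26.3 in the siArglu1 libraries.

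Few long exons differed by the size rule with dexamethasone, and most of those that did had thin coverage. In siControl, 9 exons (0.858%) changed by 15 points or more, 1 higher and 8 lower (0.763%), where 0.646% of all exons did (0.309% higher and 0.337% lower). In siArglu1, 18 (1.72%) changed, 8 higher and 10 lower, where 0.836% did (0.477% higher and 0.358% lower). With OK or SOK in all 4 libraries, 3 (0.366% of 819) and 5 (0.61%) remained of these exons, beside 0.234% and 0.248% of all such exons. With SOK in all 4, there were 2 in siControl (0.431% of 464), Ncor1 and G2e3, and 1 in siArglu1 (0.2155%), Ncor1, beside 0.0234% and 0.0703%. These shares of long exons lie above those of all exons but rest on very few exons. The 305 nt exon of G2e3, a ubiquitin ligase, stood at 80.7 in siControl Veh and 61.4 in siControl Dex, and at 74.2 and 71.6 in siArglu1 Veh and Dex. The 2 Dex pairs correlated with an r of 0.03 and a rho of 0.02 over the 1049 exons. Of the 9 exons that changed in siControl, 4 had the same sign in siArglu1. In both pairs 1 exon was lower by the size rule and none higher, where 0.0245% and 0.00918% of all exons were, and 2 moved in opposite directions, where 0.0551% did. In the limma fit no exon of any length passed for Dex (0.0%), with 64 long exons at an unadjusted p under 0.05 where 6.86% of all exons were. The limit given for knockdown, of few degrees of freedom, holds for Dex too. Opposed changes in the 2 knockdown pairs were found for 1 exon, where 0.0245% of all exons had them.

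The rule for named exons also took, of those past 15 points in at least 1 Dex pair, the ones with the largest difference shared by both. Besides Ncor1 and Zfp187, the 303 nt exon of Phf8, a histone demethylase, was lower with Dex in both pairs. It stood at 60.2 (Veh) and 48.5 (Dex) in siControl and 77.4 (Veh) and 53.4 (Dex) in siArglu1, which made differences of −11.6 and −24.0. Higher with Dex in both were the 2121 nt exon of Nin, which encodes the centrosomal protein ninein (45.9, 48.8, 47.2 and 64.7), and a 7861 nt row of Aak1, a kinase of clathrin-mediated uptake (9.33, 12.3, 8.57 and 25). Each of these reached 15 points in siArglu1 alone, where the siArglu1 Veh value was scored VLOW for Nin and LOW for Aak1.

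A PSI between 20 and 80 in all 4 libraries was found for 42 long exons, and 22 of these had SOK throughout. The 6 of the 22 with the narrowest range were in Coasy, Angel2, Ncoa6, Kif23, Uimc1 and Ccdc136. The 708 nt exon of Coasy, which encodes the bifunctional enzyme at the end of coenzyme A synthesis, stood at 50.3 (Veh) and 51.4 (Dex) in siControl and 53.1 (Veh) and 54.1 (Dex) in siArglu1, a range of 3.79 points. It holds the start codon in M21. The 326 nt exon of Angel2, which also holds a start codon, lay between 73.8 and 78.7. The 2976 nt exon of Ncoa6, a nuclear receptor coactivator, was at 39.4, 40.7, 35.7 and 37.7 in the same order, and M21 has no transcript that skips it. The 312 nt exon of Kif23, a kinesin of the cell midbody, was at 33.1, 33.7, 32.7 and 27.5. The 737 nt exon of Uimc1, a ubiquitin reader of the DNA damage response, lay between 70.6 and 77.8, and the 507 nt row of Ccdc136 between 32.8 and 40.6.

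The same 22 held exons that shifted by less than the size rule but to the same side in both knockdown pairs, named after their values were seen. Cux1, a homeodomain transcription factor, had rows of 836 nt (34.3, 33.8, 21.7 and 22.6) and of 303 nt (31.7, 27.0, 23.1 and 20.4), which lie between the same flanking exons, and both were lower in the siArglu1 libraries. The 344 nt exon of Asnsd1 went the other way, at 60.8 and 66.1 in siControl Veh and Dex and 72.0 and 72.4 in siArglu1 Veh and Dex.

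**Figure D4:**
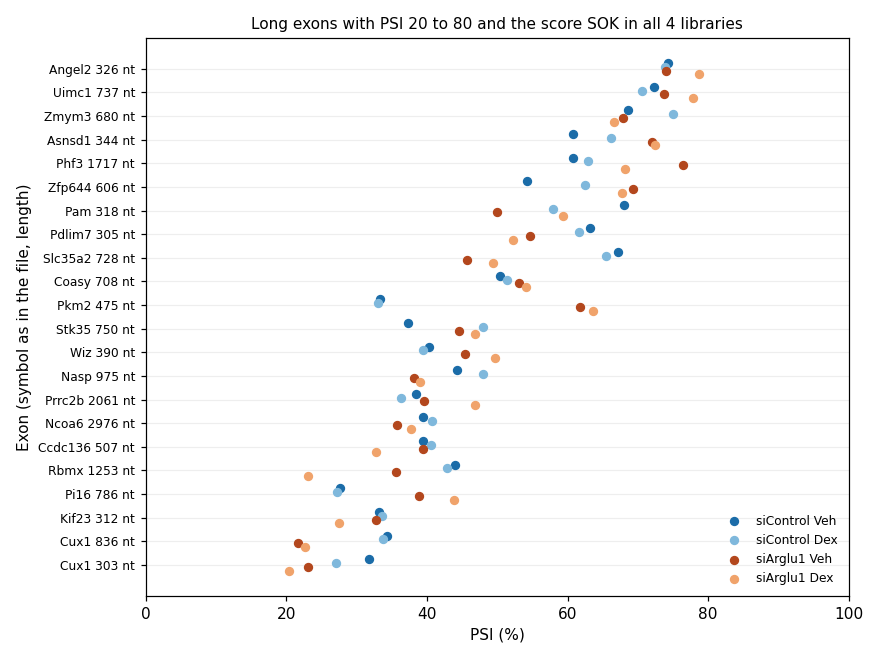
PSI (%) in each of the 4 libraries for the 22 long exons with a PSI of 20 to 80 and the score SOK in all of them, 1 point per library, ordered by mean PSI. The 4 points of Coasy lie within 3.79 points of each other, whereas those of Pkm2 fall into a siControl pair near 33 and a siArglu1 pair above 61.

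At the far ends of the range, the 3 longest exons were those of Mtap1a, Aak1 and Coro7. The 6101 nt row of Coro7, a coronin of the Golgi, was at 1.54 (Veh) and 5.56 (Dex) in siControl and 7.69 (Veh) and 4.23 (Dex) in siArglu1, and neither it nor the Aak1 row matched an M21 exon. Of the 118 exons below 5 in every library, 45 had SOK throughout. They included the 3180 nt exon of Mtap4 (0.24 at most), a microtubule-associated protein, and the 2124 nt exon of Rtn3 (0.07 at most), a reticulon of the endoplasmic reticulum. More than 1 long exon passed in 90 genes. Mdn1 had 4, all at 95 or above, and the 3 of Nav1 were at 100 in every library. Those of Clip1, a protein of microtubule plus ends, differed among themselves: the 569 and 945 nt exons stayed at 98.3 or above while the 2268 nt exon lay between 7.41 and 12.7. In Brd1 a 314 nt row (2.48 to 4.24) stood beside 2 others above 92.

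Position in the gene set long exons apart from shorter ones by measures that the choice did not use. Of the 1049, 854 matched an M21 exon of the same gene by length and flanking intron. In 215 of the 854 (25.2%) the exon held a start codon, against 5.26% of 24712 matched exons of 51 to 300 nt. The share was 36.5% between 750 and 1000 nt. Accordingly 25.6% were partly coding, against 6.29%, and 70.6% wholly coding, against 87.6%. Their flanking introns were longer, with a median of 2971 nt upstream and 2766 nt downstream, against 1793 and 1798 nt. Median GC content was 53.2%, against 50%. The share of wholly coding exons with a length that is a multiple of 3 was 43.8% (264 of 603), against 41.0%, and over 2000 nt it was 71.4% (15 of 21). These differences are over exons of a single annotation and were given no test.

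The state of the exon in N2a cells went with its annotation. Of the 558 exons above 95 in all 4 libraries 93.4% matched M21, whereas 23.7% of the 118 exons below 5 did. The 259 exons with an annotated skipping transcript had a median PSI of 90.2 in siControl Veh, and the 595 without one had 100. Of the 30 exons that moved with knockdown in vehicle, 17 were among these 259 and 6 among the 595, where 2.31% of all exons moved. The 195 exons without an M21 match held the rest, 4 higher and 3 lower. With a median PSI of 100, the 595 had little room to rise. Wholly coding exons with a length not divisible by 3 were above 95 in 79.6% of cases in siControl Veh (n = 339), and those with a divisible length in 70.1% (n = 264).

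The hexamers CGGAGG and CGGGGG, which spell the RNA motif that the study assigned to ARGLU1 in vitro, were sought on the sense strand of the exons. They were present in 196 of the 854 matched long exons (23.0%) and in 3.47% of those of 51 to 300 nt, at 0.50 and 0.29 occurrences per kilobase. Of the 5 exons whose ends are shown, that of Slc35a2 held 1 occurrence and the others held none. Of the 34 matched exons that moved in a knockdown pair, 7 held one (20.6%), at 0.80 occurrences per kilobase. The exon of Plec alone held 14 of these occurrences. A match is only a description of the letters of an exon.

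**Figure D5:**
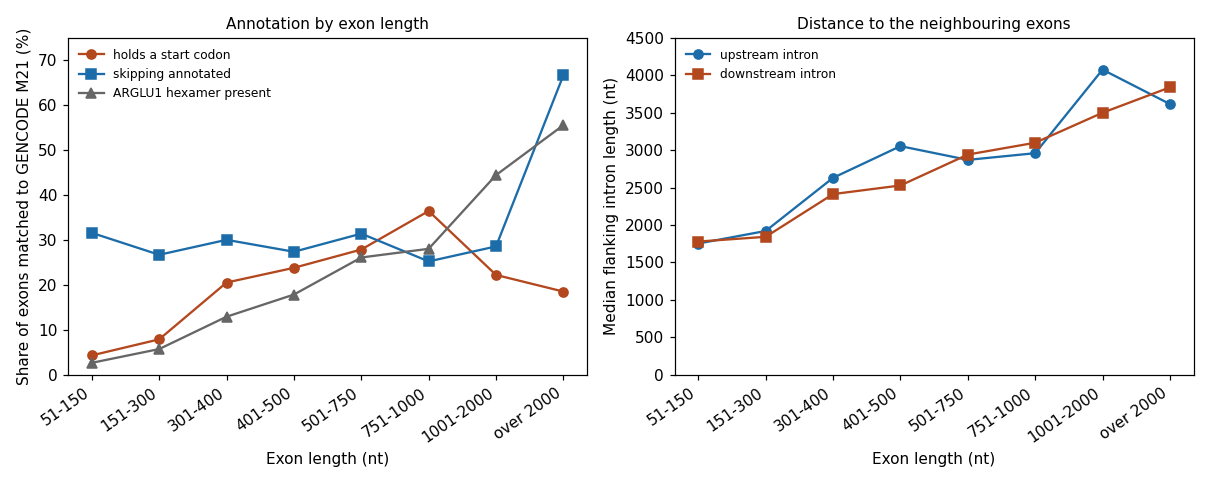
Left, share (%) of exons matched to GENCODE M21 that hold a start codon, have an annotated skipping transcript or hold one of the hexamers, by exon length in nt. Right, median length (nt) of the flanking introns. The share with a start codon reaches 36.5% between 750 and 1000 nt and the introns are longer in every bin over 300 nt than in both shorter bins.

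Gene groups were followed through lists chosen with earlier results of these data known. Of regulators of chromatin and transcription, 54 long exons passed coverage, with a median PSI of 98.8 in siControl Veh. In vehicle 5 were higher after knockdown and none lower, beside 1.02% and 1.29% of all exons, and the median difference was 0. The 5 were in Ncor1, Phf3, Phf8, Med1 and Pwwp2a. The 364 nt row of Med1, a Mediator subunit, stood at 11.5 (Veh) and 13.2 (Dex) in siControl and 32.7 (Veh) and 24.8 (Dex) in siArglu1. The 745 nt row of Pwwp2a, a reader of histone H2A.Z, was at 55.7, 67.5, 74.6 and 73.1. In Dex, 1 exon of the list was higher after knockdown, that of Ncor1. The largest Dex difference beside Ncor1 and Phf8 was that of a 943 nt exon of Mga, at 100 in siArglu1 Veh (VLOW) and 84.1 in siArglu1 Dex (LOW).

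Among genes of neuronal adhesion and the cytoskeleton, 32 exons passed, of which 2 were higher in vehicle (Ptprf and Caprin2) and 3 lower (Mtap1a, Pam and Plec), beside 1.02% and 1.29% of all exons. The 657 nt exon of Caprin2 stood at 42.4 (Veh) and 57.3 (Dex) in siControl and 60.8 (Veh, LOW) and 62.0 (Dex) in siArglu1. The 3381 nt exon of Plec, which encodes the rod of the cytolinker plectin, was at 100, 95.3, 82.8 (LOW) and 88.9. In Dex, Ptprf alone of the list was higher and none was lower.

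Of genes of genome maintenance and the centrosome, 22 exons passed, and in vehicle 1 was lower, that of Cep164, a protein of centriole appendages, at 20, 17.7, 4.55 and 6.90, where 1.29% of all exons were lower. Nin was higher after knockdown in Dex, where its siControl value was scored LOW. Akap9 (354 nt, 79.2 to 94.97), Palb2 (671 nt, 84.4 to 98.1) and Mki67 (960 nt, 82.3 to 89.8) passed no comparison. Of RNA-binding and splicing proteins 22 exons passed, with a median PSI of 93.8, and Rbm14 was the single exon of the list (which does not hold Rbmx) to pass, in vehicle. Rbm6 (1279 nt) lay 14.1 and 14.9 points higher with Dex in siControl and siArglu1, just under the size rule. Rbm41 (404 nt, 81.8 to 96.0), Cdk12 (391 nt, 83.3 to 91.2) and Hnrnpl (497 nt, 86.4 to 93.3) varied less.

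Genes named as zinc finger proteins had 31 exons that passed, with a median range of 5 points over the libraries, against 2.36 for all long exons. After knockdown 2 were higher and 1 lower in vehicle, and 1 was higher and 3 lower in Dex, beside 1.02% and 1.29% of all exons in vehicle and 0.851% and 0.943% in Dex. The higher ones in vehicle were Zfp644 and a 443 nt row of Zfp507 (8.20, 2.70, 31.8 and 11.1), whose siArglu1 Veh value was scored LOW. In Dex Zfp142 (314 nt, at 92.4, 96.7, 83.3 and 76.6) and Zscan22 (485 nt, at 19.3, 30.9, 16.7 and 15) were lower beside Zfp187. Zfp398 (396 nt, at 91.8, 74.5, 83.3 and 100) was higher. The siControl Dex values of Zscan22 and Zfp398 and the siArglu1 Dex value of Zfp398 were scored LOW. Of a list of long exons known to be alternative 19 passed, with a median PSI of 79.1. In vehicle 5 of them were higher and 3 lower after knockdown, and in Dex 3 were higher, beside 1.02%, 1.29% and 0.851% of all exons, but that list was drawn up with such changes in view.

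The level of the host genes moved in part with knockdown. Of 940 tested genes with a long exon, 98 (10.4%) had a log2 ratio of at least 0.81 in size in vehicle, 28 higher and 70 lower, where 15.7% of all 12497 genes did (7.27% higher and 8.39% lower). In Dex there were 55 (5.85%) beside 12.3%. Their median ratio was −0.15 in vehicle and −0.07 in Dex, against 0.02 for all genes in both. With Dex, 1 of the 940 passed that size in siControl and none in siArglu1, beside 0.968% and 0.928% of genes. An edgeR fit of siRNA and treatment called 614 of the 940 for knockdown at an adjusted p under 0.05, 225 higher and 389 lower, where it called 62.2% of all genes, and 10 for Dex, where it called 1.04%. Its spread is that between the vehicle and Dex arms and not between cultures. Among the 41 tested genes of the 43 exons that moved in either knockdown pair, 1 was higher and 5 were lower in level in vehicle. Of all genes 7.27% were higher and 8.39% lower, and of the 904 genes of the other long exons 27 and 66 were. Ncor1 and Phf8 were among the 5 lower, with Phf8 at −0.95 (−1.02 to −0.88).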

How the data were processed

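One poly(A) library per group was sequenced, each from 3 pooled cultures. The authors deposited PSI in percent with vast-tools quality scores, and read counts with cRPKM (an RPKM corrected for mappability) per gene. The submitters' processing notes name Bowtie and mm9, and no source used here gives their versions. The 2 unnamed columns of the gene table hold the authors' ratios and were not used. Rows of the cassette table were kept by the length and coverage rules stated above. With 1 library per group, differences of PSI and log2 ratios of CPM (edgeR 4.0.16, R 4.3.3, TMM, prior count 1, genes with 75 or more reads in sum) were read against sizes of 15 and 0.81. Fits of siRNA and treatment over the 4 libraries (limma 3.58.1 on PSI, edgeR quasi-likelihood on counts, Benjamini-Hochberg over all features) were added after seeing the data. Rules and fits were tested on simulated data, for the limma fit with the same spread in every exon. Intervals are exact binomial and cover counting error only. Exons were matched to GENCODE M21 by gene identifier, length and flanking intron, without conversion of coordinates. Named exons were those past 15 points in the same direction in both knockdown pairs, of those past 15 points in a Dex pair up to 3 per direction with the largest difference shared by both, any opposed with OK or SOK throughout, the 3 longest, the 6 steadiest between 20 and 80, and up to 5 of each list by range. The members and lists were chosen with earlier results of these data known. Alternatives were a 25-point threshold, other score filters, 1 row per gene and other scalings.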

Additional observations from a re-analysis of the deposited data

Results flagged for a closer look

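Exons that passed 15 points in opposite directions in pairs of the same contrast were looked at again, and the difference between the pairs was not tested. The 899 nt exon of Klhl28 stood at 100 (Veh) and 82.3 (Dex) in siControl and 79.3 (Veh) and 100 (Dex) in siArglu1. Its knockdown difference was −20.67 in vehicle and 17.74 in Dex, and its Dex difference was −17.74 in siControl and 20.67 in siArglu1. The siArglu1 Veh value was scored N and the others LOW. A second Klhl28 exon, of 444 nt, was at 84.0 in that library, also scored N, and at 100 in the others. The 396 nt exon of Zfp398 had a Dex difference of −17.37 in siControl and 16.67 in siArglu1, with the score OK in siControl Veh, VLOW in siArglu1 Veh and LOW in the other libraries. None of these values would enter a count that required OK or SOK in all 4 libraries. Over all cassette exons 8 had opposed knockdown changes of this size (0.0245%) and 18 opposed Dex changes (0.0551%).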

How the results depend on the processing

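With a threshold of 25 points, 5 long exons changed with knockdown in vehicle, 6 in Dex, 1 with Dex in siControl and 1 in siArglu1, and 1 was higher and 1 lower in both knockdown pairs. Without a coverage minimum (1748 exons) these counts were 152, 106, 100, 117, 16 and 13. With OK or SOK in all 4 libraries (819 exons) they were 16, 12, 3 and 5, with 4 higher and 1 lower in both. With balanced inclusion junctions only (409 exons) they were 10, 7, 3, 5, 2 and 0. With a complexity of S or C1 in every library (838 exons), Dex in siControl gave 5 and 1 was higher in both pairs, and the other counts stayed within a factor of 1.5. Taking 1 row per gene (947 exons, 1 of them without a gene identifier) moved no count by that much. The median PSI in siControl Veh over 2000 nt was 60.3 with OK or SOK throughout. The count of host genes changed in vehicle, 98, stayed within a factor of 1.5 under every scaling and filter. The changes of the 8 exons themselves are differences of deposited values and did not depend on these choices: under the stricter filters they are either kept or left out. OK or SOK in all 4 libraries kept Pkm2, Ncor1, Ptprf, Mbtps2 and Slc35a2. Balanced inclusion junctions kept Ncor1 and Ptprf alone, and a complexity of S or C1 kept Ptprf, Slc35a2 and Rpl24. Ptprf was the single exon that each of these filters kept. In the limma fit of siRNA and treatment, chosen after seeing the data, 0 long exons were higher and 0 lower for knockdown at an adjusted p under 0.05, with 103 at an unadjusted p under 0.05. The few degrees of freedom of that fit made an adjusted p under 0.05 hard to reach. The edgeR fit of the same design called 614 host genes. No paired analysis was possible because each group has only 1 replicate number, apart from these fits, in which treatment is the block. Leaving out a replicate was not possible either. Depth limits all differences of exons scored LOW or less, and no value here has an error between cultures.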
